A study of Mus musculus with 2 samples.

Results

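Cells with endothelial transcripts were rare in these mouse gastruloids and numbered 78 of 13826. They were chosen by their transcripts. A cell was kept when at least 3 of the 8 endothelial genes Cdh5, Kdr, Pecam1, Tie1, Tek, Emcn, Etv2 and Tal1 had at least 1 unique molecular identifier (UMI, a tag that counts 1 captured RNA molecule) and Zfp42, a gene of pluripotent cells, had none. Only cells with at least 1000 detected genes and at most 10% mitochondrial UMIs were considered. The untreated library held 41 such cells of 6646, a share of 0.617% (95% exact Clopper-Pearson interval 0.443 to 0.836), and the dTAG-13 library 37 of 7180, a share of 0.515% (0.363 to 0.710). The intervals overlapped, and they cover counting error only. With 2 of the 8 genes in place of 3 the shares were 1.70% (1.40 to 2.04) and 1.04% (0.822 to 1.31), and those intervals did not overlap. Of the 72 untreated and 38 dTAG-13 cells so added, however, only 3 and 1 clustered with most of the selected cells. The levels of the 8 genes and of Zfp42 below describe the choice and support nothing.

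A gastruloid is grown in culture from clumped embryonic stem cells and forms tissues like those of the early embryo, here with somites, the blocks of mesoderm beside the neural tube. Both libraries came from the E14 triple reporter embryonic stem cell line, in which the endogenous Zeb2 gene carries an HA-FKBP12F36V tag, so the untreated cells carry the tagged protein too. The tag lets the small molecule dTAG-13 send Zeb2, a zinc-finger repressor known from epithelial-to-mesenchymal transition, to degradation. The comparison asks what changes when Zeb2 is lost. Aggregates were seeded with 300 cells, received 3 µM CHIR99021, an activator of Wnt signalling, at 48 h and were placed in 10% Matrigel at 96 h. The treated aggregates received 100 nM dTAG-13 at 72 and 96 h. About 32 gastruloids were pooled for each library, live cells were sorted with the dead-cell dye 7-AAD, and 10000 cells entered the 10x Genomics 3′ v3.1 workflow. The control is labelled untreated, while the series text names DMSO. The sources used here do not give the harvest hour. Each group had 1 library. Differences between the groups therefore have no replicate check. No test between the conditions was made, and the intervals given for them cover counting error in these libraries only.

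Endothelial cells line blood and lymphatic vessels. In the mouse embryo they arise from mesoderm that expresses Kdr, the main receptor for vascular endothelial growth factor (VEGF). The ETS-family factor Etv2 acts briefly at this step and switches on other ETS factors, receptors and junction proteins of the endothelium, and is then lost from vessels. Tal1 and Lmo2 belong to a complex shared by the precursors of blood and endothelium, so early endothelial cells and blood precursors have many genes in common.

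The selected cells held 2315496 UMIs, with a median of 25348.5 per cell and a range of 10629 to 134310. Their median depth was 22693 UMIs in the untreated and 28582 in the dTAG-13 library, against 20601.5 over the other cells. The median mitochondrial share was 4.65%. Clustering of both libraries together placed 72 of the 78 cells (38 untreated, 34 dTAG-13) in a single cluster of 86 cells, which was made in part from the same genes. The other 6 lay in 4 clusters, and not all of them had the endothelial profile described below. On a list of 36 endothelial surface and signalling genes that the choice did not use, 3 of the 6 had summed levels of 66.9, 134 and 164 CPM (defined below), near the 119 and 141 CPM of all other cells in the untreated and dTAG-13 libraries. The cell at 134 CPM was also the deepest, with 34 UMIs of Sox2 and 31 of Epcam, and the cell at 164 CPM had a high doublet score. No selected cell shared its barcode with the other library. Of the selected cells, 5 were among the barcodes with the highest doublet scores (2 untreated, 3 dTAG-13). The condition on Zfp42 removed 16 untreated and 25 dTAG-13 cells that had 3 or more of the 8 genes, and 9 and 1 of these lay in the same cluster.

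Levels are given in CPM, in which the UMIs of a gene are scaled to the total UMIs of the cells named. They measure shares of transcripts in a group of cells, so fewer cells with a transcript and fewer transcripts per cell cannot be told apart in a sum. Kdr was present in all 78 selected cells at 311 CPM (95% Poisson interval 288 to 334). Single cells ranged from 14.9 to 884 CPM of Kdr, with a median of 333. Etv2 was present in 77 cells at 447 CPM (420 to 475), from 0 to 2377 CPM in a cell with a median of 286. Tal1, a helix-loop-helix factor of blood and endothelial precursors, was present in 65 cells at 131 CPM.

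Genes of more mature endothelium were found in fewer of the cells. Cdh5, which encodes VE-cadherin, the adhesion protein of endothelial junctions, was present in 45 cells at 51.4 CPM. The angiopoietin receptor gene Tek was present in 40 cells at 30.2 CPM, and its relative Tie1 in 21 cells at 11.2 CPM. Emcn, a sialomucin of capillary and venous surfaces, was present in 24 cells at 32.4 CPM. Pecam1, an adhesion molecule of endothelium and of naive pluripotent cells, was present in 21 cells at 16 CPM. Pecam1 was the only gene of the 8 with a higher level in another set examined, as the 2723 cells with Zfp42 had 23.3 CPM. As a background, of 1671 somite cells, taken as those with both Meox1 and Tcf15, 9.10% had a Kdr UMI and 13.6% an Etv2 UMI, at a median of 23923 UMIs per cell. Over all other cells these shares were 2.86% and 14.7%. No somite cell had a Cdh5 UMI, and a count of 0 allows up to 0.180% of them with one, with the limit set at 3 cells.

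All 8 genes are protein-coding. In GENCODE M21 on GRCm38, Etv2 lies on chromosome 7 (30633616 to 30635852, minus strand), Kdr on chromosome 5 (75932827 to 75978458, minus strand) and Emcn on chromosome 3 (137341067 to 137432185, plus strand). Since Etv2 and its relatives bind ETS sites, the 250 bases before the RefSeq start of each gene were searched for CGGAAG or AGGAAG on both strands. Promoters of 6 of the 8 genes were matched. For Tie1, whose window is not shown, the RefSeq start lies inside the GENCODE gene. The same holds for Emcn and Kdr, whose windows reach slightly into the gene. The RefSeq windows (GRCm38.p6) of 3 are shown, since they range from no match to several. They are chr7:30635853-30636102 (minus strand), chr3:137340828-137341077 (plus strand) and chr5:75978456-75978705 (minus strand), written 5′ to 3′ in the direction of the gene with ETS matches in capitals.
Etv2: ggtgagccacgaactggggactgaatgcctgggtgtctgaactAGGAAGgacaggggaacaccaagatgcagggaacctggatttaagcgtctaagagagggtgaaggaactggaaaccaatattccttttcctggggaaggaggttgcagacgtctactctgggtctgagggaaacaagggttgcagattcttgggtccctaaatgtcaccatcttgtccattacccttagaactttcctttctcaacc
Emcn: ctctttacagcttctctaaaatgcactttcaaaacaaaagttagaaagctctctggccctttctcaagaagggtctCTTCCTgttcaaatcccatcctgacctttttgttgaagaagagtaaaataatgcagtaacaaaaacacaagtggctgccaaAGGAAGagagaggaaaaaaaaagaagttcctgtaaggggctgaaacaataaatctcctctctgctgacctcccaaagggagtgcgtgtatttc
Kdr: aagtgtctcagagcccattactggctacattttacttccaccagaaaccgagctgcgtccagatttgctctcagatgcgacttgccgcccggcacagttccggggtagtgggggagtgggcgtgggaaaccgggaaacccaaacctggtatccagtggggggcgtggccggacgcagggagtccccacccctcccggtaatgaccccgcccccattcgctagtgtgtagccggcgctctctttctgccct

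The Etv2 window held 1 match, the Emcn window 2 and the Kdr window 0. Over all 6 windows, 3 held a match, while 10527 of 27025 promoters in the table (39.0%) did. The GATA words AGATAA or TGATAA, on both strands, were found in 1 of the 6 windows, that of Tal1, and in 17.0% of all promoters. None of the 3 printed windows held a GATA word. A match in a window is a description of its letters and does not mark a bound site.

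**Figure D1:**
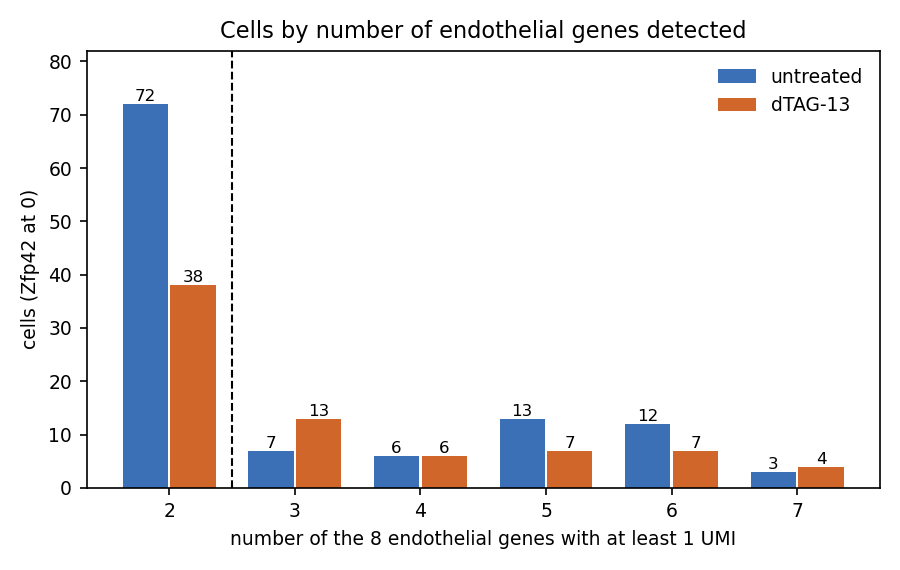
Number of cells (vertical axis, cells with Zfp42 at 0) by how many of the 8 endothelial genes had at least 1 UMI (horizontal axis), for the untreated and dTAG-13 libraries. The dashed line is the threshold: 72 untreated and 38 dTAG-13 cells had exactly 2 genes, and 7 and 13 cells had exactly 3.

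The selected cells ranged from 3 to 7 of the 8 genes, and no cell had all 8. Exactly 3 genes were found in 20 cells (7 untreated, 13 dTAG-13), 4 in 12 cells (6 and 6), 5 in 20 (13 and 7), 6 in 19 (12 and 7) and 7 in 7 (3 and 4). The dTAG-13 cells, although more deeply sequenced, thus had a median of 4 genes against 5 in the untreated cells. Just outside the threshold, 110 cells had exactly 2 genes. They had 84.0 CPM of Kdr and 127 CPM of Etv2, and none had a UMI of Tie1 or Emcn. Their median was 1 UMI each of Kdr and Etv2, and 1 cell held 80 of their 464 Etv2 UMIs. Only 4 of the 110 lay in the cluster of most selected cells. Just inside it, the 20 cells with 3 genes had 211 CPM of Kdr, 586 CPM of Etv2 and 126 CPM of Tal1, but none had Tie1, Tek or Emcn and 1 had Cdh5. These cells at the lower edge had mainly Kdr, Etv2 and Tal1, while cells with 7 genes had 117 CPM of Cdh5 and 138 CPM of Etv2. The cells were grouped by the number of these same genes, so this contrast describes the grouping.

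The summed list of 36 endothelial surface and signalling genes was lowest in cells with 3 of the 8 genes and highest in those with 7, but did not follow the order between 5 and 6. The median sum was 992 CPM in cells with 3 of the 8 genes, 2777 with 4, 3618 with 5, 3305 with 6 and 5014 with 7. The median number of list genes detected in a cell went from 10.5 to 24 over the same range. Etv2 went the other way, with medians of 585, 487, 166, 348 and 127 CPM, so its order was not even. Depth did not follow the number of genes, with a Pearson r of -0.17 and a Spearman coefficient of 0.01 across the 78 cells. Across the same cells Etv2 and the list had a Pearson r of -0.33 and a Spearman coefficient of -0.27. Etv2 is among the 8 genes that chose the cells, so its order and these coefficients describe the choice too. The libraries also differed in both, with untreated and dTAG-13 medians of 171 and 438 CPM for Etv2 and 3390 and 2497 CPM for the list. All these values share each cell's total as their divisor and are a description of the cells of both libraries.

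**Figure D2:**
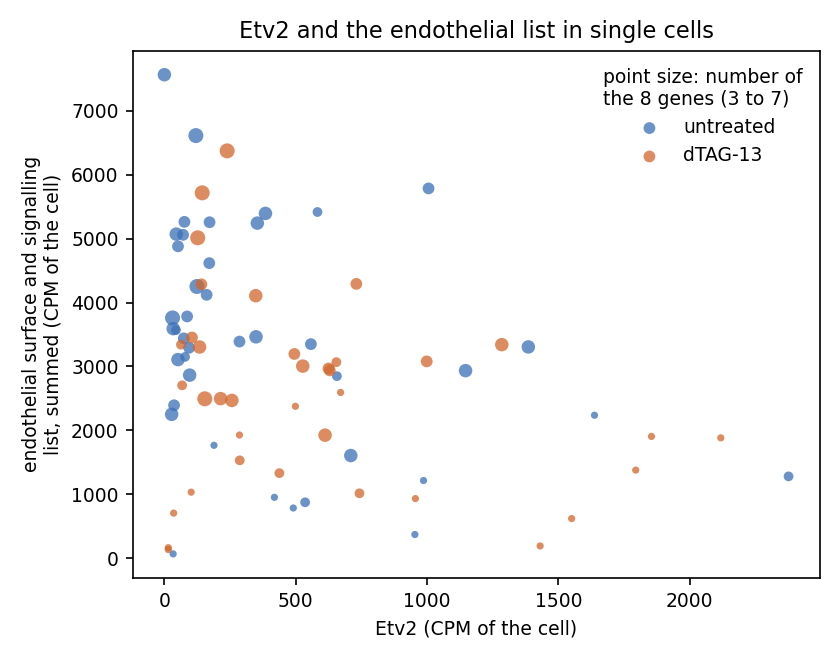
Etv2 (horizontal axis, CPM of the cell) against the summed endothelial surface and signalling list (vertical axis, CPM of the cell) in each of the 41 untreated and 37 dTAG-13 cells. Larger points have more of the 8 genes. The cell with the highest list sum, 7567 CPM, had no Etv2 UMI, and the cell with the most Etv2, 2377 CPM, had 4 of the 8 genes.

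Single genes filled in the picture. From cells with 3 to cells with 7 of the 8 genes, Cldn5, the claudin of endothelial tight junctions, stood at 15.8, 29.6, 171, 105 and 413 CPM. Cd34, a sialomucin of endothelium and blood progenitors, stood at 2.63, 8.89, 92.2, 31.1 and 163 CPM. The ETS factor Fli1 went from 27.7 CPM to 184 CPM between the 2 ends. Lmo2 stayed within 319 to 684 CPM in all 5 sets, so it was present in cells with and without the more mature genes. Epcam, an adhesion protein of epithelia, was at 123 and 142 CPM in cells with 3 and 4 genes. It was at 15.7 and 39.8 CPM with 5 and 6, and at 0 in the 7 cells with 7 genes. The libraries differed, with 54.9 untreated and 144 dTAG-13 CPM at 3 genes and 7.84 and 224 CPM at 4. At 4 genes, 1 dTAG-13 cell with a high doublet score had 30 Epcam UMIs and another had 15.

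**Figure D3:**
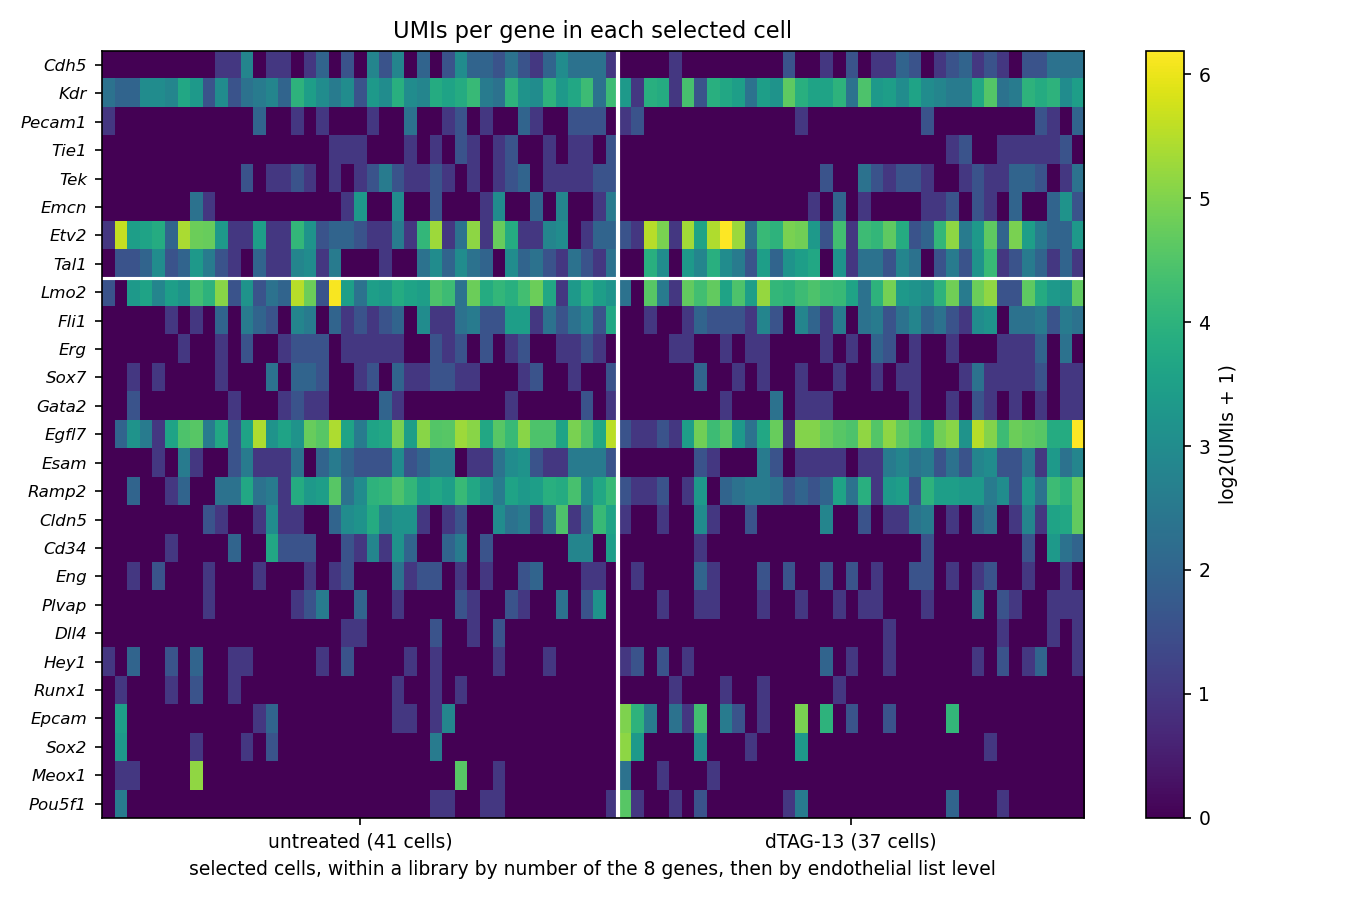
UMIs per cell, as log2(UMIs + 1), for the 8 genes that chose the cells (above the line) and 19 further genes (rows) in each of the 78 selected cells (columns), ordered within a library by number of the 8 genes and then by the endothelial list. Lmo2 and Egfl7 are present in nearly all cells of both libraries, and Cldn5 and Cd34 mainly towards the right of each block. Epcam is present in 26.9% of the cells, Sox2 in 14.1% and Meox1 in 10.3%.

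Against the 13748 other cells, the selected cells had a transcript profile led by vascular genes. Of 9718 genes with at least 10 UMIs in the selected cells, 325 (3.34%) were at least 2-fold higher in both libraries, with a prior of 5 CPM added to each level. Of 9889 genes with at least 10 UMIs expected, 204 (2.06%) were at least 2-fold lower in both. The prior of 5 CPM holds these counts down, as a prior of 1 CPM gave 506 higher and 465 lower. Lower genes also numbered 347 in cells with 4 or more of the 8 genes, 362 with 5 or more, 311 within the main cluster and 315 with cells weighted equally. The median log2 ratio over all genes was -0.03. The most raised genes outside the 8 were Ctla2a, Dusp2, Rhoj, Lmo2 and Rasip1.

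Ctla2a, a cysteine protease inhibitor, stood at 337 CPM (314 to 362) against 0.323 CPM in other cells, a log2 ratio of 6.01. It was found in 47 of the 78 cells and was uneven, with up to 88 UMIs in a cell. Its close paralog Ctla2b, at 3.43, may share reads with it, so both values are uncertain. Dusp2, a phosphatase that acts on MAP kinases, stood at 299 CPM (277 to 322) against 1.30. It was found in 91.0% of the selected cells and in 2.75% of the somite cells. Rhoj stood at 225 CPM (206 to 245) against 1.32, and Rasip1, a Rap1 and Ras effector needed for vessel lumens, at 192 CPM (174 to 210) against 3.02. Egfl7, a secreted factor of endothelium, was among the most abundant at 644 CPM (612 to 677), but 46.6% of other cells had it as well, at 31.0 CPM. Igfbp4, an IGF-binding protein, was at 663 CPM (630 to 697) and present in all 78 cells.

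**Figure D4:**
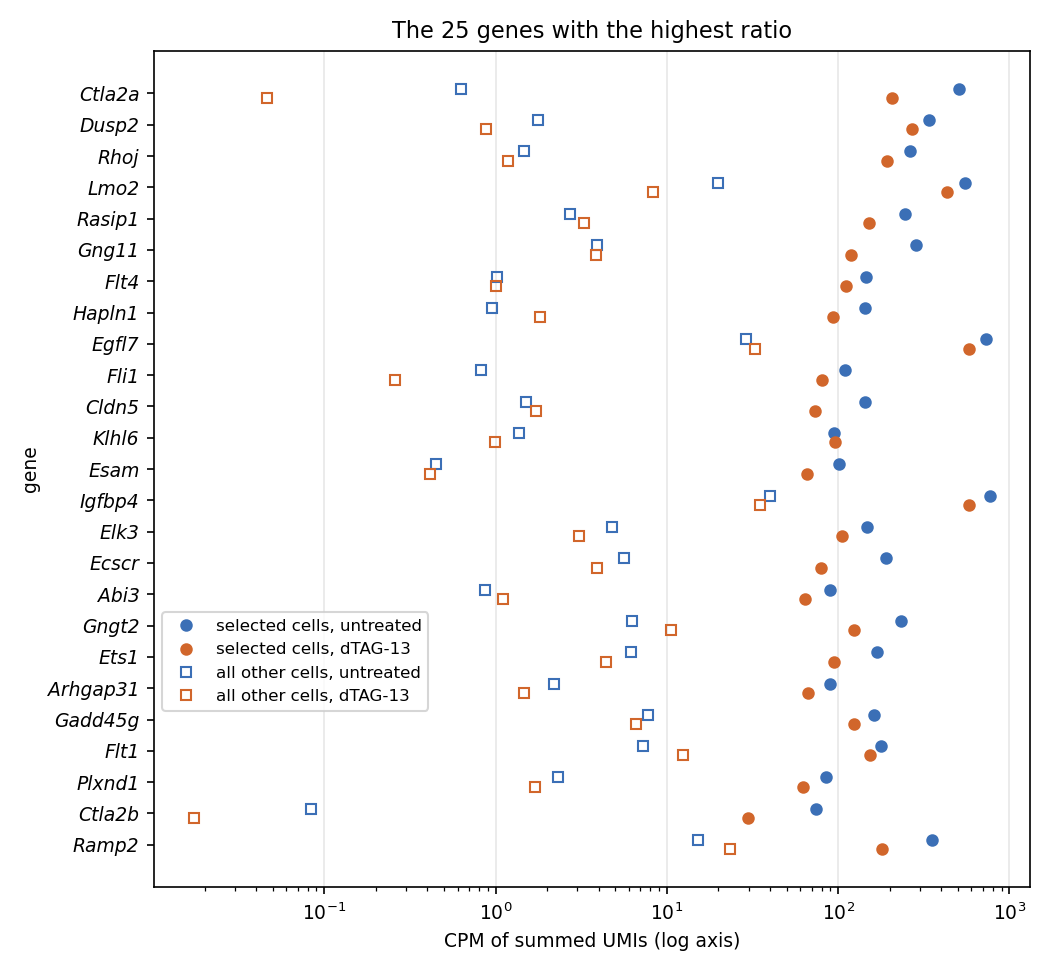
CPM of summed UMIs (log axis) for the 25 genes with the highest ratio of selected to other cells, outside the 8 genes that chose the cells. Filled points are selected cells and open squares all other cells of each library; in both libraries every filled point lies to the right of its squares, as for Lmo2 (549 and 429 CPM against 19.8 and 8.32).

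Transcription factors of early endothelium were raised in part. Of the 24 list members with enough UMIs, 13 were higher and 2 lower, with a median log2 ratio of 1.33. Lmo2, the partner of Tal1, stood at 482 CPM (454 to 511) against 13.7, and was found in 36% of the somite cells at 32.8 CPM. The ETS genes Fli1 (93.3 against 0.527 CPM), Ets1 (127 against 5.25), Elk3 (123 against 3.88) and Erg (23.8 against 0.0640) were all higher. Sox7 (25 CPM) and Sox17 (16 CPM), both of the SoxF group, passed too. Sox17, also on the endoderm list, passed narrowly in the dTAG-13 library, at a log2 ratio of 1.04. Of its 22 dTAG-13 UMIs, 4 and 3 lay in the cells with 164 and 134 CPM of the surface and signalling list. The SoxF gene Sox18 was found in 12 cells and did not pass in both libraries. Hhex, an early endothelial and endodermal homeobox gene, stood at 82.9 against 6.0 CPM, and Mef2c, a target of ETS factors in endothelium, at 44.1 against 4.04. The 2 lower members were Klf2, which responds to blood flow in endothelium and is also active in pluripotent cells (13.8 against 66.4 CPM), and Meis2.

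Receptors and surface proteins had the most raised members of the lists. On the surface and signalling list, 27 of 32 tested members were higher and 0 lower, and the median log2 ratio was 2.53. The summed list stood at 3124 CPM in untreated and 2074 CPM in dTAG-13 selected cells, against 119 and 141 in the other cells. It included Esam (81.2 against 0.433 CPM) and Cldn5 (104 against 1.63), which act at endothelial junctions, the endothelial surface gene Ecscr (127 against 4.72) and Ramp2, a partner of the adrenomedullin receptor (257 against 19.5). Clec14a, another endothelial surface gene, had no UMI in the selected cells. A count of 0 allows up to 1.30 CPM for any gene here, with the limit set at 3 UMIs. On the VEGF list 4 of 11 were higher, with a median of 0.44. These 4 were the receptors Flt1 (164 against 9.99 CPM) and Flt4 (126 against 1.02) and the co-receptors Nrp1 (44.1 against 6.58) and Nrp2 (130 against 23.1). The ligand genes did not pass, with Vegfa at 14.7 against 12.1 CPM and Vegfb at 66.5 against 83.9.

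Genes that mark arteries were at low levels. On the Notch and arterial list 2 of 15 were higher and 1 lower, with a median of 0.47. The 2 were Nrp1 and Sox17, and Sox17 passed narrowly in the dTAG-13 library (1.04). The Notch ligand gene Dll4 stood at 4.75 against 0.0640 CPM and was found in 9 cells, and the arterial connexin gene Gja4 stood at 6.48 against 0.649 CPM. Both intervals of the log2 ratio without the prior lay above 0 (5.01 to 7.33 for Dll4 and 2.46 to 4.07 for Gja4), while the prior of 5 CPM kept them from being counted. Notch1 stood at 62.2 against 38.8 CPM, its target Hey1 at 16 against 7.65 and the arterial ephrin gene Efnb2 at 22.5 against 14.9, none of which passed. Gja5 and Bmx had no UMI in the selected cells. On the venous and lymphatic list 4 of 9 were higher, with a median of 0.82. These were Flt4, Nrp2, the apelin receptor gene Aplnr (45.3 against 6.05 CPM) and the scavenger receptor gene Stab1 (14.3 against 0.0823). The venous factor Nr2f2 (19.0 against 8.60 CPM) and the lymphatic factor Prox1 (12.1 against 5.52) did not pass, and Lyve1, of lymphatic vessels, had 2 UMIs.

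Several genes shared with the blood lineage were higher, while globin genes had no UMI. On the haemogenic endothelium list 5 of 11 were higher, with a median of 0.65: Lmo2, Gata2 (14.3 against 0.247 CPM), Lyl1 (13 against 0.0244), Cbfa2t3 (25 against 1.14) and Itga2b (19.0 against 0.728), which encodes the integrin CD41. Runx1, the factor required for blood to form from endothelium, had 12 UMIs, 5.18 against 1.51 CPM, and did not pass. On the list of blood markers, 8 of 16 had no UMI in the selected cells, among them the globin genes Hbb-bh1, Hbb-y, Hba-x and Hba-a1, as well as Gata1 and Ptprc. The other 8 had UMIs, among them the myeloid factor Spi1 (2.59 against 0.128 CPM), Laptm5 of blood cells (3.45 against 1.06) and Myb of blood progenitors (5.18 against 3.32), and of these 8 Itga2b was counted as higher. The summed blood list stood at 53.5 and 24.5 CPM in untreated and dTAG-13 selected cells, against 6.54 and 8.77 in others.

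Matrix, junction and signalling genes were also part of the profile. On the basement membrane and integrin list 8 of 19 were higher, with a median of 0.80, among them Sparc (435 against 51.3 CPM), Fn1 (392 against 108), Col4a1 (213 against 36.1) and Col4a2 (108 against 19.7). The intermediate filament gene Vim stood at 565 against 119 CPM. On the BMP and TGF-beta list 3 of 14 were higher, namely the co-receptor Eng (22.0 against 2.40 CPM), Tgfbr2 (20.7 against 1.58) and Bmp2 (40.6 against 4.77). On the vascular tone list 4 of 9 were higher, among them Nos3, endothelial nitric oxide synthase (18.1 against 1.40 CPM), and Tfpi, an inhibitor of clotting (32.0 against 9.38). Of 4 tested endocardial genes, 3 were higher, led by the hyaluronan link protein gene Hapln1 (115 against 1.41 CPM). On the junction and transport list 3 of 9 were higher and 1 lower. The caveolar genes Cav1 and Cavin2 had no UMI in the selected cells. On the guidance list 2 were higher, Plxnd1 and Aplnr, and 3 lower.

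The target of dTAG-13 was present in these cells at the level of the rest. Zeb2 stood at 81.2 CPM in the selected cells (70.0 to 93.7) and at 81.2 CPM in the other cells. In the selected cells it was 80.2 CPM in untreated and 82 in dTAG-13 cells (log2 ratio 0.03), while the other cells had 67.3 and 93.6 CPM. The degrader removes Zeb2 protein, and this transcript level is no check of the labels. Its relative Zeb1, also a repressor of epithelial genes, was higher in the selected cells, at 100 against 25.1 CPM. Twist1 was at 49.2 against 24.7 CPM and did not pass.

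Dppa5a, a gene of pluripotent cells, was the lowest of all relative to the other cells, at 12.5 against 470 CPM. The choice left out cells with Zfp42, and the other cells included all 2723 of them. Low levels of genes of pluripotent cells therefore describe the choice too. Dppa5a was found in 25.6% of the selected cells and in 35.7% of the somite cells. These shares are not on equal terms, as the somite cells had no condition on Zfp42 and 13.8% of them had it. Among the 10 lowest were also Lefty1, an inhibitor of Nodal (3.02 against 46.1 CPM), Morc1 (0 against 24.2), the junction gene Cldn3 (3.02 against 40.4), the epithelial gene Sfn (3.89 against 42.8), the muscle myosin gene Mylpf (3.02 against 40.5) and Hes7, of the somite clock (7.77 against 59.9). The antisense genes Hoxaas3 (59.2 against 410 CPM) and Hoxb5os (18.6 against 142) overlap Hox genes, and since the use of strand in counting is not stated, their reads cannot be told from those of their partners. Of the 15 genes of Hox groups 5 to 9, 6 were lower and 0 higher, with a median log2 ratio of -1.76 over the 10 tested, and of groups 1 to 4, 1 of 12 was lower.

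Markers of other tissues were lower for several lists, but not for all. Of 8 epithelial markers 7 were lower and 0 higher, of 7 neuromesodermal progenitor markers 4 were lower, and of 8 somite markers 1 was lower. Hand1, Foxf1 and Tbx4, of lateral mesoderm and allantois, had no UMI, while Gata6 of the same list was higher, at 40.2 against 9.43 CPM and in 57.7% of the selected cells. Among cardiac markers Myl7 was higher, at 37.6 against 9.21 CPM and in 33.3% of the cells, while Nkx2-5 had no UMI. The median log2 ratio was 0.97 over 2 tested cardiac, 0.30 over 4 lateral and 0.31 over 3 mural cell markers, and no mural marker passed. Immediate early genes were raised as well: 4 of 6 tested were higher, with a median of 1.89, among them Atf3 (72.6 against 3.61 CPM), Jun (113 against 18.3) and Junb (41.0 against 2.97). That list stood at 505 and 421 CPM in untreated and dTAG-13 selected cells and at 153 and 175 in the others. Its part in the endothelial profile was not tested. Genes of S phase (median -0.13) and of G2 and M phase (median -0.21) were close to the rest, with none of 26 passing in either direction. On the glycolysis and hypoxia list, 1 of 13 was higher and 1 lower, with a median of -0.25.

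Between the libraries, 7 of 8 epithelial markers were higher and 4 of 32 endothelial surface genes lower in the selected cells with dTAG-13. A gene was counted when its summed level differed at least 2-fold (prior of 5 CPM) and the exact 95% interval of the ratio of the UMIs, without the prior, excluded no change. Of 9718 genes, 160 (1.65%) were higher and 108 (1.11%) lower with dTAG-13, and the median log2 ratio was 0.01 in the selected and 0.01 in the other cells. After thinning to 5000 UMIs 85 genes were higher, of which 10 were among the 160, and a minimum of 30 UMIs left 67 higher and 54 lower. A prior of 1 CPM gave 177 lower. The ratios compare 2 libraries and not the conditions. The ratios also mix cells that differ in the number of the 8 genes, so most named genes are set beside their value in the 28 untreated and 18 dTAG-13 cells with 5 or more, an alternative added after the data were seen.

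Cdh5 stood at 79.2 CPM (62.8 to 98.6) in the untreated and 29.9 CPM (21.2 to 40.8) in the dTAG-13 cells, a log2 ratio of -1.27 with an interval of -2.0 to -0.84. In cells with 5 or more genes the ratio was -0.65, and after thinning every cell to 5000 UMIs, which leaves 11 untreated and 10 dTAG-13 UMIs of Cdh5, it was 0.01. Pecam1 was also lower, at 24.8 and 9.19 CPM with a log2 ratio of -1.07, or -0.78 with 5 or more genes. Tek, Tie1 and Emcn stood at -0.53, -0.72 and -0.96 and were not counted, and with 5 or more genes at 0.16, -0.20 and -0.34. Kdr was at 335 and 292 CPM and Etv2 at 397 and 485 CPM, with ratios of -0.19 and 0.29, and of -0.10 and 0.62 with 5 or more. Per cell, the median of Etv2 was 171 CPM in the untreated and 438 CPM in the dTAG-13 cells, with ranges of 0 to 2377 and 14.9 to 2119 that overlapped widely. Since the 8 genes chose the cells, these values describe the choice too.

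Outside the 8 genes, the largest drop among the named endothelial genes was in Cd34, from 74.3 to 16.1 CPM, a log2 ratio of -1.91 (interval -2.98 to -1.49) that was -1.29 in cells with 5 or more genes. Sparc, a matrix protein, went from 650 to 268 CPM, a ratio of -1.26 (-1.47 to -1.09), while the other cells had 40.9 and 60.7 CPM. Its median per cell was 768 CPM in the untreated and 191 CPM in the dTAG-13 cells. Vim went from 830 to 360 CPM (-1.19) and the G-protein gene Gng11 from 286 to 119 CPM (-1.23). With 5 or more genes these 3 ratios were -0.89, -0.82 and -0.83. Ctla2a went from 509 to 205 CPM (-1.29), but was at -0.26 with 5 or more genes, and Ctla2b went from 74.3 to 29.9 CPM, with -0.37 in those cells. Ecscr, at -1.20, was at -0.93 with 5 or more.

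As a group, 4 of the 32 tested surface and signalling genes (Cd34, Cd93, Ptprb and Ecscr) were lower and 0 higher with dTAG-13. The median of the list was -0.44 against 0.00 in the other cells, and -0.10 in cells with 5 or more of the 8 genes. Per cell the summed list had a median of 3390 CPM in untreated cells (66.9 to 7567) and 2497 CPM in dTAG-13 cells (134 to 6375). The ranges overlapped over most of their length. Of the 24 tested endothelial transcription factors none was counted, and their median was -0.45 against -0.01 in the other cells. The venous factor Nr2f2 was lower, at 35.6 and 6.13 CPM (-1.87), with 63.9% of its untreated UMIs in 3 cells. Meox1, a somite gene, had the lowest ratio of the named genes (-2.77), from 61 untreated UMIs of which 96.7% lay in 3 cells. With 5 or more genes Meox1 had 24 untreated and 0 dTAG-13 UMIs. Clec1b, a receptor of platelets and blood precursors, was lower too (-1.20, and -0.62 with 5 or more genes), with 81.7% of its untreated UMIs in 3 cells.

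**Figure D5:**
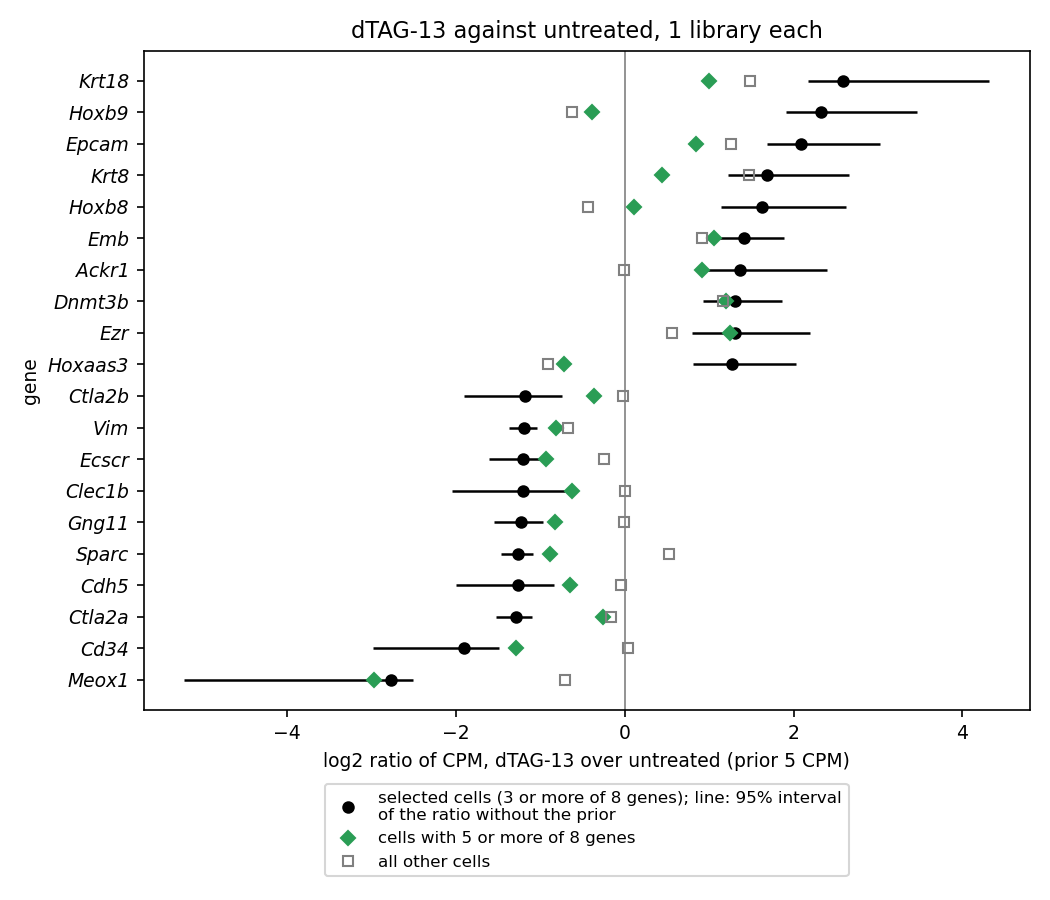
Log2 ratio of dTAG-13 to untreated CPM, prior 5 CPM (horizontal axis), for the 10 highest and 10 lowest named genes in the selected cells (black, with the 95% interval of the ratio without the prior), in the selected cells with 5 or more of the 8 genes (green) and in all other cells (open squares). Emb, Dnmt3b and Ezr keep their distance from 0 in the green points, while Hoxb9 and Hoxaas3 fall below it, at -0.39 and -0.72. The green point of Meox1 rests on 0 dTAG-13 UMIs and on the prior.

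Of the 8 epithelial markers tested, 7 were higher in the dTAG-13 cells, with a median log2 ratio of 1.67. The median was 0.92 in cells with 5 or more of the 8 genes and 1.41 in the other cells. The keratin gene Krt18 went from 8.91 to 78.9 CPM (2.59) and Epcam from 22.8 to 113 CPM (2.09), while the other cells had 206 and 503 CPM of Epcam. Of the 37 dTAG-13 cells, 14 had Epcam, 18 Krt18 and 19 Krt8, against 7, 8 and 12 of the 41 untreated cells. Much of the total lay in few of them: 3 of the 37 dTAG-13 cells held 54.1% of the Epcam UMIs and 53.4% of those of Krt18. The 3 cells with the most Epcam had 31, 30 and 19 UMIs of it. The first was the deepest cell, at 134310 UMIs and outside the main cluster, the second had a high doublet score, and the last had 107450 UMIs. Without the deepest cell the list median was 1.52, without high doublet scores 1.50 and within the main cluster 1.51. In cells with 5 or more of the 8 genes the ratios were 0.84 and 1.00, and that of Krt8 was 0.44 in place of 1.69. Of the genes of Hox groups 5 to 9, 5 were higher, among them Hoxb9 (16.8 and 105 CPM) and Hoxb8 (19.8 and 71.2 CPM), but 3 dTAG-13 cells held 84.7% of the Hoxb9 and 73.1% of the Hoxb8 UMIs. With 5 or more genes Hoxb9 was at -0.39 and Hoxb8 at 0.11. Of the endoderm markers 4 were higher, with a median over 5 tested of 1.70 that became -0.36 with 5 or more genes. Markers of other tissues, with many of their UMIs in few cells, moved with these ratios, and their part was not tested.

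Some other genes were found in more of the 37 dTAG-13 cells: Emb in 32, Dnmt3b in 34 and Ezr in 21. Emb, an adhesion protein of the immunoglobulin family, went from 66.3 to 185 CPM (1.41, interval 1.08 to 1.89) and was at 1.06 in cells with 5 or more genes. The DNA methyltransferase gene Dnmt3b went from 50.5 to 132 CPM (1.30, 0.93 to 1.86) and Ezr, a linker of membrane and actin, from 23.8 to 65.9 CPM (1.30, 0.80 to 2.19). Their ratios with 5 or more genes were 1.2 and 1.25. The other cells had ratios of 0.92, 1.16 and 0.56 for Emb, Dnmt3b and Ezr. Ackr1, an atypical chemokine receptor of venules and red cells, was higher at 18.8 and 56.7 CPM (1.37, and 0.92 with 5 or more genes). It was found in 18 of the 37 dTAG-13 cells, as many as Krt18, with 37 of its 74 dTAG-13 UMIs in 3 cells. Ackr1 was nearly absent from other cells at 0.155 and 0.127 CPM.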

How the data were processed

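The 10x matrices of UMI counts, deposited by the authors with 1 library per group, held 7276 untreated and 7873 dTAG-13 barcodes over 32285 genes. Reads were processed with Cell Ranger 6.1.2 on mm10, per the submitters' processing notes. The sources used here do not give the strand setting of the counting. The libraries held 158002807 and 176677276 UMIs, and 630 and 693 barcodes failed the limits on genes and mitochondrial UMIs. Scrublet's automatic threshold marked 1 and 0 barcodes and so did not work. No barcode was removed as a doublet, and removal of the 424 and 496 highest scores was tried as an alternative.

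Counts were summed over cells, and CPM used each sum's own total. Ratios had a prior of 5 CPM added to both levels. A gene was tested with at least 10 UMIs in the selected cells, or at least 10 expected for lower calls. Intervals are 95% exact Poisson or Clopper-Pearson and cover counting error only. With 1 library per group no p-value was computed. Thinning drew 5000 UMIs per cell. Clusters came from scanpy 1.11.5 (2000 variable genes, 30 components, 15 neighbours) with leidenalg 0.10.2 at resolution 1. edgeR 4.0.16 and DESeq2 1.42.0 gave alternative size factors only. The calling steps were tested on simulated summed counts with counting error only. The simulation had no variation between cells, so it could not check calls that rest on few cells. Python was 3.11.15.

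Named genes were the 8 genes and Zfp42, the 25 highest called genes found in at least 20% of selected cells and the 10 lowest against other cells, the 10 highest and 10 lowest called dTAG-13 ratios with at least 50 CPM in a library, the called and most abundant list members, and Zeb2. Predicted genes and the 8 genes were passed over. Vegfb, Hey1, Dll4, Lyve1 and other list members given by value serve to describe their lists. The cells, lists and rules were chosen with earlier results of these data known. Positions are from GENCODE M21, which held 32158 of the gene IDs, and promoters from RefSeq (GRCm38.p6).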

Additional observations from a re-analysis of the deposited data

How the results depend on the processing

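The share of selected cells moved with the rule. In untreated and dTAG-13 cells it was 1.70% and 1.04% with 2 of 8 genes, 0.421% and 0.251% with 5 of 8, 0.858% and 0.864% without the condition on Zfp42, and 0.320% and 0.296% after thinning to 5000 UMIs. The dTAG-13 share alone moved past its interval, to 0.334% with 4 of 8 genes, with Kdr left out or with Etv2 left out, and to 0.362% with Zfp42, Dppa5a and Esrrb all at 0. A limit of 5% mitochondrial UMIs turned the difference between the libraries to 0.0794 percentage points.

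Genes higher than in other cells numbered 262 to 506 over the alternatives, with 506 at a prior of 1 CPM. Lower genes numbered 465 at that prior, 347 with 4 of 8 genes, 311 within the main cluster, 362 with 5 of 8 and 315 with cells weighted equally, and 191 of the 204 were kept with 4 of 8. With dTAG-13, 85 genes were higher after thinning, of which 10 were among the 160, and 67 with a minimum of 30 UMIs. Lower genes numbered 177 at a prior of 1 CPM and 54 with a minimum of 30 UMIs. The dTAG-13 ratio changed sign for Cdh5 after thinning (0.01) and for Hoxb9 with 5 of 8 genes (-0.39). It changed sign for Hoxaas3 with 4 of 8 (-0.11), within the main cluster (-0.14), after thinning (-0.29) and with 5 of 8 (-0.72). The endoderm median turned to -0.20 with 4 of 8 and -0.36 with 5 of 8. The cause was not tested in any of these cases. Counted once per gene and alternative setting, 245 of the other dTAG-13 ratios of named genes stayed within their error and 29 moved. No ratio of selected to other cells was counted as reversed. Other signs changed without being counted as reversed. With 5 of 8 genes the Tek ratio turned to 0.16. The medians of neuromesodermal progenitor markers, Hox groups 5 to 9 and Hox groups 1 to 4 turned from 0.87, 0.84 and 0.34 to -0.47, -0.23 and -0.09.

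For gene calls, 5 of 8 genes, equal weights and leaving out the deepest cell were chosen after seeing the data. No paired analysis was possible because each group has 1 library and the labels give no replicate numbers. Depth limits genes below about 1.30 CPM in the selected cells.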

Other observations

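Cells rich in Etv2 lay on both sides of the choice. Over both libraries 54 cells had at least 10 UMIs of Etv2, of which 35 were selected and 19 were not, and 8 of the 19 had a UMI of Zfp42. The 19 had a median of 36518 UMIs, above that of the selected cells, and 7 of them lay in the cluster that held most selected cells. Among the 110 cells with exactly 2 of the 8 genes, 1 cell had 80 UMIs of Etv2.

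The intermediate mesoderm gene Lhx1 stood at 103 CPM in the selected and 52.4 CPM in the other cells. Its UMIs lay in few cells, with 95.1% of the untreated and 74.0% of the dTAG-13 UMIs of Lhx1 in 3 cells of each library. Of 12 genes of Hox groups 10 to 13, 10 had no UMI in the selected cells.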
